A study of Homo sapiens with 6 samples.

Results

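The 7 matched genes of a set from the mitochondrial death pathway are described here in MDA-MB-231 cells treated with SAHA: the apoptosome genes APAF1 and CASP9, the inhibitor of apoptosis (IAP) genes XIAP, BIRC2, BIRC5 and BIRC6, and DIABLO, whose protein counters the IAPs. A member was any probe set whose platform symbol was exactly 1 of 8 listed genes, which gave 31 of 49293 probe sets for 7 of those genes. The array's 102 control probe sets stood aside. The remaining listed gene, BIRC3, was not analysed here. The rule matched names alone, but the genes were proposed with earlier results of these data known. CASP9 is an initiator caspase, and no executioner caspase was on the list, so CASP6 is given among the other genes of the pathway. MDA-MB-231 is a human triple-negative breast cancer line grown in DMEM/F12 with fetal bovine serum. SAHA, also called vorinostat, inhibits zinc-dependent histone deacetylases. Of the 6 arrays, 3 came from cells given 5 µM SAHA over 8 h and 3 from cells given its solvent DMSO over the same time. Total RNA was measured on Affymetrix PrimeView arrays, and each value is a log2 expression value of 1 probe set. Whether replicates came from separate cultures is not given in the labels. The p-values therefore cover the spread among these arrays alone, which may be technical, and the number of arrays limits the precision.

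In the intrinsic pathway of apoptosis, mitochondria release cytochrome c, which binds APAF1 in the cytosol. APAF1 then assembles into a wheel-shaped complex, the apoptosome, on which the initiator caspase CASP9 becomes active and cleaves executioner caspases. IAP proteins share a zinc-binding fold, the BIR domain. XIAP blocks caspases directly, BIRC2 (cIAP1) is mainly a ubiquitin ligase in TNF receptor signalling, BIRC6 (BRUCE) is a giant ubiquitin-conjugating enzyme, and BIRC5 (survivin) also belongs to the chromosomal passenger complex of mitosis. DIABLO (SMAC) leaves mitochondria with cytochrome c and binds IAPs through a short motif at its processed end.

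CASP9, APAF1 and DIABLO were higher with SAHA, and XIAP, BIRC2, BIRC5 and BIRC6 were lower. In limma's test over all probe sets, 7 member probe sets were higher (22.2% of all 49293 probe sets were) and 24 were lower (24.1% of all were), at an adjusted p under 0.05. In either direction 46.4% of all probe sets were called, against 31 of 31 here. No gene had probe sets called in both directions. The groups of arrays did not overlap in 31 of 31 member probe sets, nor in 54.4% of all probe sets. The share called rises with the level: among probe sets with a mean log2 value of at least 7, 72.5% were called, 32.8% as higher and 39.7% as lower. Of the members, 19 probe sets lay there, 3 of them higher and 16 lower. The median size of the change was 0.61 log2 units over the member probe sets and 0.21 over all probe sets. These medians were not matched for level, and 12 of the 31 member probe sets were of BIRC5. With 1 probe set per gene, the one with the highest mean, 3 genes were higher and 4 lower, where 24.1% and 23.2% of 18132 genes were. Probe sets of 1 gene were read on the same arrays and are not replicates of each other.

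**Figure D1:**
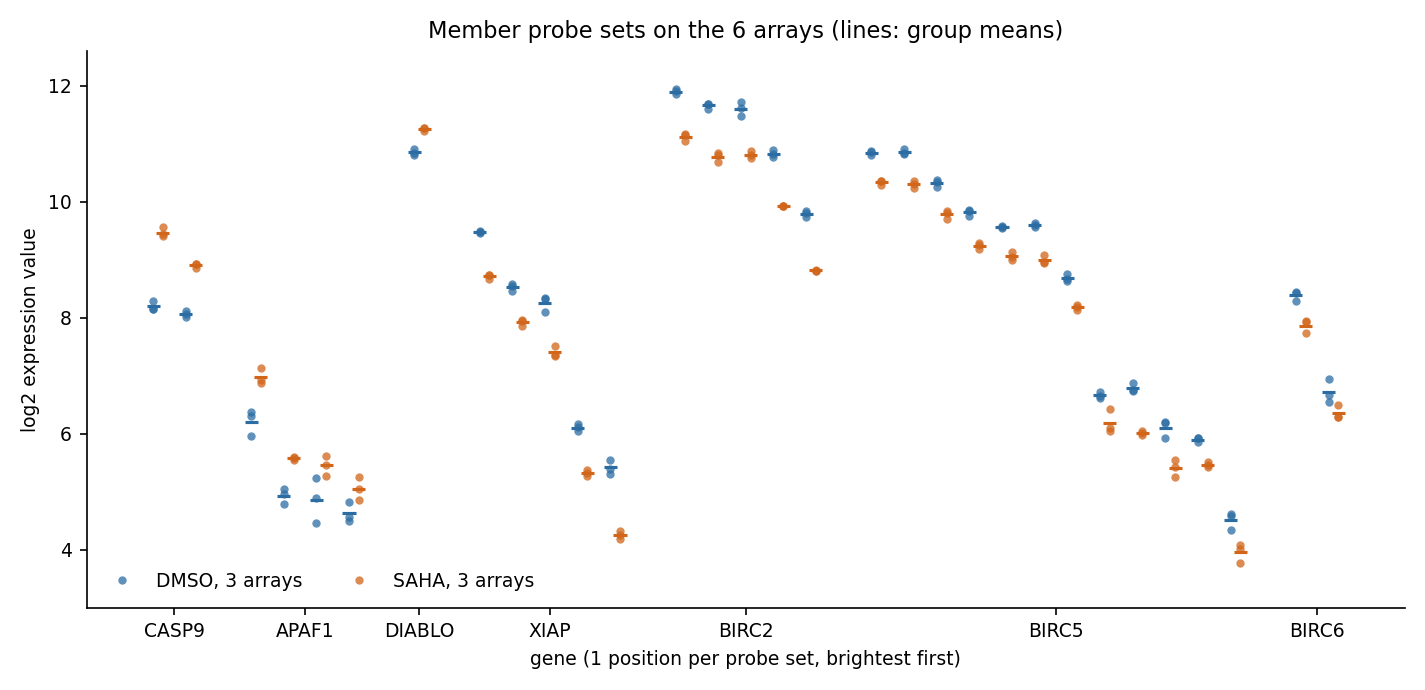
Log2 expression value (vertical axis) of each of the 31 member probe sets on 3 DMSO arrays (blue points) and 3 SAHA arrays (orange points), grouped by gene and ordered by level within a gene, with group means as short lines. The orange points lie above the blue ones in CASP9, APAF1 and DIABLO and below them in XIAP, BIRC2, BIRC5 and BIRC6.

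To show the promoters of genes that moved in opposite directions, the 250 bases before the first listed start are given for the risers CASP9 and APAF1 and the fallers XIAP and BIRC2, from RefSeq on GRCh38.p14. Of the 7 measured genes, 6 had an entry in that table. Capitals mark GGGCGG or its reverse complement, the core of the GC box that SP1-type factors bind, and overlapping matches were each counted.
CASP9 (chr1:15524216-15524465, minus strand): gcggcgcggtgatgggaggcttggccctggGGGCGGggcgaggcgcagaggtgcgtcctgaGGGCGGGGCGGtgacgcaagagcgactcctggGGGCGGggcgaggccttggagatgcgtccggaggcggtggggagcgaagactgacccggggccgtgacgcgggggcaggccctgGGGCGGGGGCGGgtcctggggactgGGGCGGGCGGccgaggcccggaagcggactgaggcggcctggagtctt
APAF1 (chr12:98645040-98645289, plus strand): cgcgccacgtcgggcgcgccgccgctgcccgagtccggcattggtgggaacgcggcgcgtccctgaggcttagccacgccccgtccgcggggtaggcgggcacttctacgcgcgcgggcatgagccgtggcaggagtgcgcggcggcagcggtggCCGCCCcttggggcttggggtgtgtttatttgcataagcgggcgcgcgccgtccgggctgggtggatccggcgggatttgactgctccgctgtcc
XIAP (chrX:123859458-123859707, plus strand): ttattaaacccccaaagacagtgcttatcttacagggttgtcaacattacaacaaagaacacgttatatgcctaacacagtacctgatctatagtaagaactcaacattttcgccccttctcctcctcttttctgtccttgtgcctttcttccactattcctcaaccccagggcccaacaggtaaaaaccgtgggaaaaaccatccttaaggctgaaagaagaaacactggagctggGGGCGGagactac
BIRC2 (chr11:102346964-102347213, plus strand): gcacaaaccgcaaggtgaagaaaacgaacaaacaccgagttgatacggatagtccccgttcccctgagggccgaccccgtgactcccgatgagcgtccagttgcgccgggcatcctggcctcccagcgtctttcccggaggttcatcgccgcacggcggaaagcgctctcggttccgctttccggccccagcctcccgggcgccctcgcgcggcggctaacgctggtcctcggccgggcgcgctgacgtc

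The CASP9 window held 8 matches to GGGCGG on either strand, and the window at its other listed start also held 8. Those of APAF1 and XIAP held 1 each, and that of BIRC2 held 0. At other listed starts, BIRC2 had a window with 1, and XIAP had windows with 0 and 2, so the count depends on the start. Over 35116 promoter windows of this length, 42.6% held at least 1 match and 0.584% held 8 or more. DIABLO, which rose, held 1 in its first listed window, and BIRC6, which fell, held 2 in its first. At other listed starts, DIABLO had windows with 1 and 2, and BIRC6 had a window with 0. The palindrome TGACGTCA, the cAMP response element, was in 1.65% of all windows and, among members, in the window at the other start of BIRC2 (1 match). CACGTG, an E box, was in 6.34% of all windows and in 0 of the 15 windows of listed genes, which include 1 of BIRC3. CCAAT, searched on both strands, was in 32% of all windows and was present in 1 CASP9 window, 2 DIABLO windows and the APAF1 window. These letters were searched after the expression values were known, and a match is not a site of binding.

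CASP9, the initiator caspase of the apoptosome, gave the largest change of the 7 genes by brightest probe set. Its brightest probe set read 8.28, 8.15 and 8.15 on the DMSO arrays and 9.56, 9.40 and 9.44 on the SAHA arrays. Every SAHA array lay at least 1.12 log2 units above every DMSO array. The log2 fold change was 1.27 ± 0.07 (SE, n = 3 per group; 2.42-fold, limma adjusted p = 4.13e-06), with a 95% interval of 1.11 to 1.44. Of 18132 genes, 3.84% rose at least as far. The other CASP9 probe set read 8.01, 8.11 and 8.07 in DMSO and 8.92, 8.85 and 8.93 in SAHA, a rise of 0.84 ± 0.06 (1.79-fold, limma adjusted p = 1.38e-05). The difference between the rises of these probe sets, -0.44 ± 0.09, passed limma's test over all such pairs (adjusted p = 0.0152). The size of the rise thus differed by probe set, and the groups did not overlap in either.

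APAF1, the scaffold of the apoptosome, was higher in all 4 of its probe sets, by 0.41 to 0.77 log2 units (1.33-fold to 1.71-fold). The brightest read 5.96, 6.30 and 6.37 in DMSO and 6.92, 7.14 and 6.88 in SAHA. The groups were apart by 0.51 or more, and the DMSO arrays spread more than for CASP9. Its log2 fold change was 0.77 ± 0.12 (SE, n = 3 per group; limma adjusted p = 0.00101). The probe set next in level read 5.04, 4.96 and 4.79 in DMSO and 5.55, 5.59 and 5.60 in SAHA, at 0.65 ± 0.08 (limma adjusted p = 0.000196). The 2 dimmest probe sets, at mean log2 values of 5.16 and 4.84, came near to overlap. In the first of them DMSO array 2 read 5.24 and SAHA array 1 read 5.27, and in the other DMSO array 1 read 4.82 and SAHA array 1 read 4.85. Their rises, 0.59 ± 0.19 and 0.41 ± 0.12, had limma adjusted p-values of 0.0317 and 0.0233. Both calls were lost when DMSO array 3, SAHA array 2 or SAHA array 3 was left out (limma adjusted p = 0.0581 to 0.102), the former also without DMSO array 1 (adjusted p = 0.0593) and the latter also without DMSO array 2 (adjusted p = 0.0731).

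Measures of transcript integrity moved with the groups, in opposite directions. The difference between the 3' and 5' control probe sets of ACTB was 1.05, 0.90 and 0.73 on the DMSO arrays and 0.66, 0.54 and 0.64 on the SAHA arrays (p = 0.1 by a two-sided exact permutation test, which cannot go lower with 3 arrays per group). The same difference for GAPDH was small and was higher with SAHA, at 0.03 ± 0.02 in DMSO and 0.06 ± 0.02 in SAHA (SD, n = 3; p = 0.1 by the same exact test). The part of GAPDH's difference in the results was not tested. With the ACTB difference as a covariate, the brightest APAF1 probe set was at 0.39 ± 0.13 (limma adjusted p = 0.0605), and 3 of the 4 APAF1 probe sets did not pass. The 2 dimmest were at 0.18 ± 0.28 and 0.58 ± 0.21, against 0.59 ± 0.19 and 0.41 ± 0.12 without it. The ACTB difference did not overlap between the groups, so this fit cannot fully separate it from treatment. For XIAP's brightest probe set the SE was 0.057 without the covariate and 0.102 with it. The brightest probe sets of the other 6 genes passed with the covariate, CASP9 at 1.42 and DIABLO at 0.45.

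DIABLO, the mitochondrial antagonist of the IAPs, was measured by 1 probe set. It read 10.90, 10.80 and 10.84 in DMSO and 11.27, 11.27 and 11.22 in SAHA. The groups did not overlap, and each spread by 0.10 or less. The log2 fold change was 0.40 ± 0.06 (SE, n = 3 per group; 1.32-fold, limma adjusted p = 0.000711), a rise that 17% of all genes matched or exceeded.

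XIAP, the direct caspase inhibitor, was lower in all 5 of its probe sets. The brightest read 9.49, 9.46 and 9.47 in DMSO and 8.67, 8.73 and 8.73 in SAHA. All 3 SAHA arrays lay at least 0.73 below the DMSO arrays, whose own range was 0.03. Its log2 fold change was -0.76 ± 0.06 (SE, n = 3 per group; 1.69-fold lower, limma adjusted p = 1.63e-05). The next probe sets in level were at -0.61, -0.85 and -0.78. The dimmest read 5.55, 5.31 and 5.40 in DMSO and 4.32, 4.19 and 4.25 in SAHA, a change of -1.17 ± 0.08 (2.25-fold lower, limma adjusted p = 9.58e-06). That fall was larger than the one of the brightest probe set by a difference of -0.41 ± 0.09 (limma adjusted p = 0.0196 over pairs). The control probes for background had a median of 3.25 and a highest value of 10.7, which 94.2% of all probe sets do not exceed.

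BIRC2, which encodes cIAP1, fell in all 5 of its probe sets, by 0.78 to 0.98 log2 units. The brightest read 11.85, 11.90 and 11.94 in DMSO and 11.14, 11.04 and 11.17 in SAHA, at -0.78 ± 0.06 (SE, n = 3 per group; 1.72-fold lower, limma adjusted p = 2.63e-05). The dimmest read 9.74, 9.80 and 9.84 in DMSO and 8.81, 8.80 and 8.83 in SAHA. That was -0.98 ± 0.06 (1.97-fold lower, limma adjusted p = 5.21e-06). The intervals of the 5 changes overlapped, and 0 of 4 pairs with the brightest probe set passed the test of a difference. The fall of BIRC2 was matched or exceeded by 7.08% of genes and that of XIAP by 7.47%.

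BIRC5, which encodes survivin and is transcribed mostly in G2 and mitosis, had 12 probe sets, and 12 were lower. Their falls ran from 0.43 to 0.77 log2 units (1.35-fold to 1.71-fold) over mean levels from 4.24 to 10.59. The brightest read 10.81, 10.87 and 10.85 in DMSO and 10.35, 10.35 and 10.29 in SAHA, a change of -0.51 ± 0.06 (SE, n = 3 per group; 1.42-fold lower, limma adjusted p = 0.00015). The 3 SAHA arrays lay within 0.06 of each other and 0.46 or more below the DMSO arrays. The largest fall was that of a probe set at 6.73, 6.88 and 6.75 in DMSO and 6.01, 6.04 and 5.98 in SAHA. It was at -0.77 ± 0.06, and its difference of -0.26 ± 0.07 from the brightest passed the test over pairs (limma adjusted p = 0.0415), while 10 other pairs did not. In RNA from a whole culture, fewer cells of a cycle phase and less RNA per cell cannot be told apart.

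BIRC6 had 2 probe sets. The brighter read 8.29, 8.43 and 8.44 in DMSO and 7.94, 7.73 and 7.92 in SAHA, at -0.52 ± 0.08 (SE, n = 3 per group; 1.44-fold lower, limma adjusted p = 0.000878). The other read 6.55, 6.95 and 6.67 in DMSO and 6.49, 6.29 and 6.29 in SAHA. Here the groups were 0.06 apart, and the change of -0.37 ± 0.11 (limma adjusted p = 0.0272) was the smallest of the member IAP probe sets. In limma's test its call was lost without DMSO array 2 (-0.25, adjusted p = 0.0621), SAHA array 2 (-0.33, adjusted p = 0.0856) or SAHA array 3 (-0.33, adjusted p = 0.0872). It was also lost centred on ribosomal protein genes (-0.22, limma adjusted p = 0.141) or on poly-A spike-ins (-0.20, limma adjusted p = 0.224), and with the ACTB covariate (-0.40, limma adjusted p = 0.196).

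**Figure D2:**
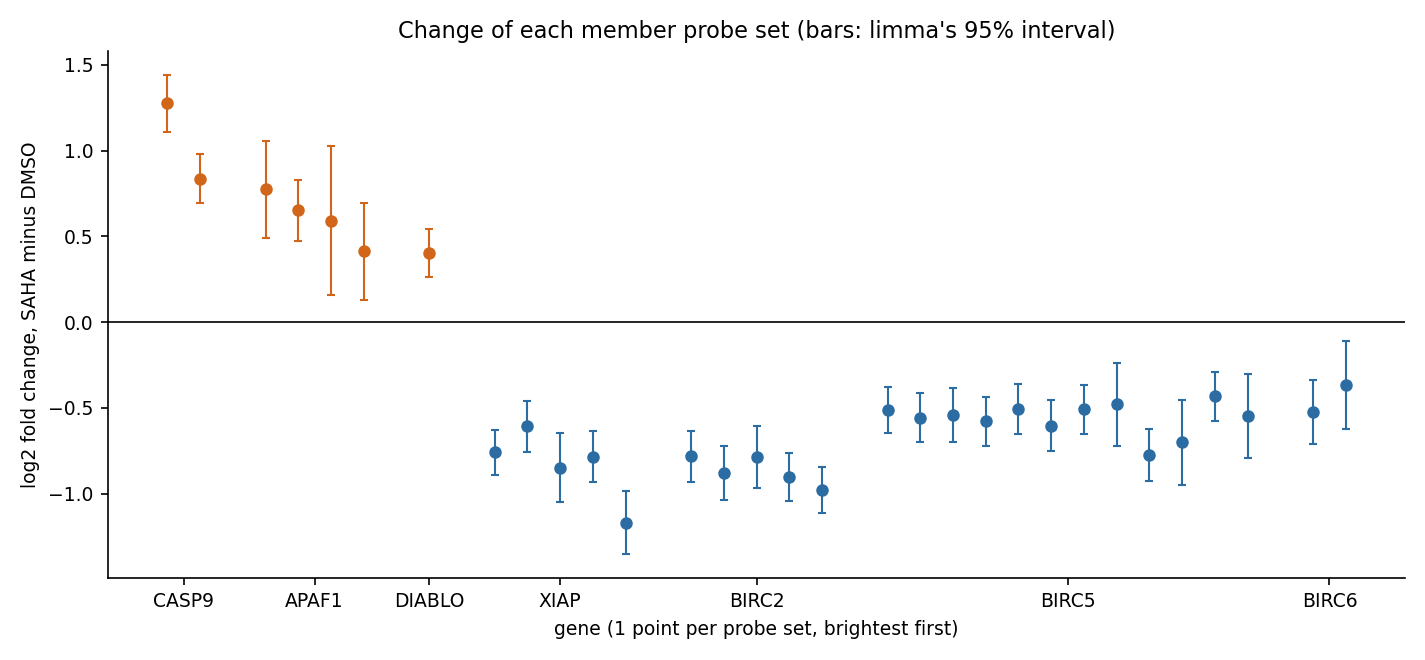
Log2 fold change of SAHA over DMSO (vertical axis) for each of the 31 member probe sets, grouped by gene and ordered by level, with limma's 95% interval as bars. The 7 probe sets of CASP9, APAF1 and DIABLO lie above 0 and the 24 of XIAP, BIRC2, BIRC5 and BIRC6 below it, and no interval reaches 0.

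Of the 24 pairs of a member probe set with the brightest of its gene, 3 differed in their change (1 of CASP9, 1 of XIAP and 1 of BIRC5), where 16% of 26827 such pairs over all genes did. The largest of these differences was 0.44 log2 units, for CASP9.

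**Figure D3:**
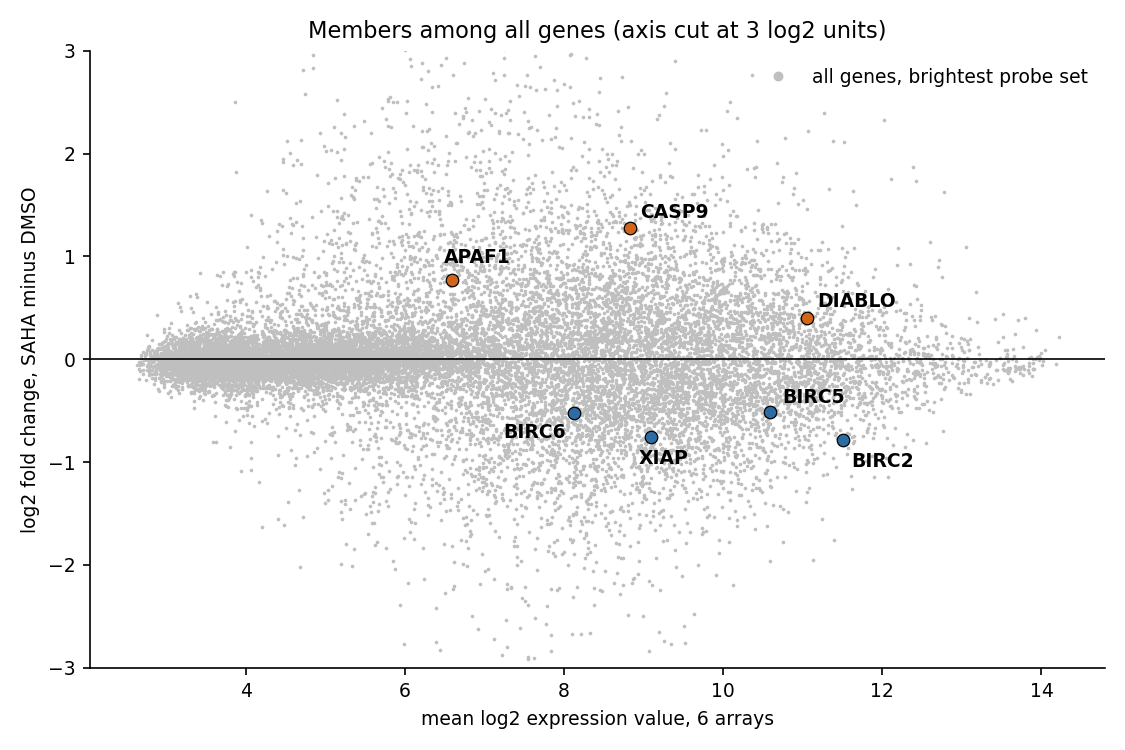
Log2 fold change of SAHA over DMSO (vertical axis, cut at 3 log2 units, which leaves out 75 genes) against the mean log2 expression value over the 6 arrays, with 1 grey point for the brightest probe set of each of 18132 genes. The 7 members are named, orange for higher and blue for lower, and lie outside the dense band around 0 but inside the cloud of other expressed genes.

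The genes whose 6 values, each set against the DMSO mean, came closest to those of CASP9 were FAM210B, KLHL26 and TMEM184B, with root mean square differences of 0.0267 to 0.0315 log2 units over 6 arrays. For BIRC2, the member with the largest fall by brightest probe set, they were DNA2, STK39 and ERMARD (0.0211 to 0.0259). With 2 conditions such likeness is common: 136 of 17692 other genes lay within 0.1 of CASP9, and 418 within 0.1 of BIRC2.

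Beyond the members, 47 genes that regulate or work with them were listed, and 42 were measured. Of these, 8 were higher, 20 lower and 14 not called, against 47.3% of all genes called in either direction (73.7% at a mean log2 value of at least 7). Their median log2 fold change was -0.23, and that of all genes was -0.01. Centred on poly-A spike-ins, 11 were higher and 12 lower, and centred on ribosomal protein genes, 12 were higher and 15 lower. These centrings moved the median of all probe sets by 0.164 and 0.148. With the ACTB difference as a covariate, 5 were higher and 16 lower. Over all probe sets, 7486 were higher and 8509 lower with it, against 10949 and 11901 without it.

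Around the apoptosome, CYCS, which encodes cytochrome c, was at 0.16 ± 0.06 (limma adjusted p = 0.0655), with 12.77, 12.79 and 12.74 in DMSO and 12.92, 12.87 and 12.99 in SAHA. It passed in 8 of 20 other settings. Of 6 regulators of the apoptosome, 5 fell and 0 rose, where 23.2% and 24.1% of all genes did. At a mean log2 value of at least 7, 73.7% of genes were called in either direction. AVEN, an inhibitor of APAF1 assembly, read 9.53, 9.69 and 9.56 in DMSO and 8.06, 8.01 and 8.10 in SAHA, a change of -1.54 ± 0.07 (2.91-fold lower, limma adjusted p = 1.33e-06). The groups were 1.43 apart, and for CASP9, the member whose groups lay furthest apart, 1.12. The others that fell were ANP32A (-0.66 ± 0.07), which promotes apoptosome activity, the CARD protein CARD8 (-0.81 ± 0.11), CSE1L (-0.33 ± 0.05) and APIP (-0.27 ± 0.06). CAAP1 was at 0.11 ± 0.06 (limma adjusted p = 0.187).

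Of the 6 other genes listed as IAP antagonists, 1 rose, 2 fell and 3 were not called. Of all genes, 24.1% rose and 23.2% fell, 47.3% in either direction. PGAM5, a mitochondrial phosphatase, was at -0.77 ± 0.06 and CLPX, a mitochondrial unfoldase, at -0.76 ± 0.08 (limma adjusted p = 2.86e-05 and 8.45e-05). The ubiquitin ligase AREL1 was higher by 0.27 ± 0.07 (limma adjusted p = 0.00981) in its brightest probe set, but only 1 of its 4 probe sets was called, and the mean of its probe sets gave 0.07 (limma adjusted p = 0.374). HTRA2, a protease released with DIABLO, was at -0.05 ± 0.06, XAF1 at 0.04 ± 0.08 and SEPTIN4 at -0.06 ± 0.09, with limma adjusted p-values from 0.541 to 0.723.

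Among the remaining IAP family genes, NAIP rose by 0.41 ± 0.09 (limma adjusted p = 0.00658) from a mean of 4.54 ± 0.16 to 4.95 ± 0.08 (SD, n = 3). BIRC8 was the dimmest, at 3.63 ± 0.06 in DMSO and 3.35 ± 0.12 in SAHA, near the median of the background controls. Its change of -0.27 ± 0.08 (limma adjusted p = 0.0201) was lost on leaving out DMSO array 2, SAHA array 1 or SAHA array 3 (limma adjusted p = 0.0658 to 0.0747), on either centring (-0.13 and -0.11) and with the ACTB covariate (limma adjusted p = 0.15). BIRC7 was at -0.12 ± 0.08 (limma adjusted p = 0.232).

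Downstream of the apoptosome, 0 of 6 measured genes among executioner caspases and their targets rose and 2 fell in limma's test. The shares over all genes were 24.1% higher and 23.2% lower, and 73.7% were called at a mean log2 value of at least 7. Of the 6, DFFA alone had a value above 0. CASP6, the executioner caspase measured here, read 8.29, 8.20 and 8.28 in DMSO and 8.20, 8.10 and 8.26 in SAHA, with groups that overlapped, at -0.07 ± 0.07 (limma adjusted p = 0.429). ACIN1, which acts in chromatin condensation, was at -0.37 ± 0.06 (limma adjusted p = 0.0013) and the DNA repair enzyme PARP1 at -0.22 ± 0.06 (limma adjusted p = 0.0137). The call of PARP1 was lost without SAHA array 3 (-0.20, limma adjusted p = 0.0551), and it was lost centred on ribosomal protein genes (-0.08, limma adjusted p = 0.297) or on poly-A spike-ins (-0.06, limma adjusted p = 0.72). It was also lost with the ACTB covariate (-0.18, limma adjusted p = 0.233). The call of ACIN1 was lost centred on poly-A spike-ins (-0.21, limma adjusted p = 0.175). ROCK1, a kinase that caspases activate, was at -0.24 ± 0.10 (limma adjusted p = 0.099) and passed in 5 of 19 other settings. Among them were the fit without SAHA array 3 (-0.34, limma adjusted p = 0.0211) and trend and robust moderation (-0.24, limma adjusted p = 0.0157). DFFA was at 0.02 ± 0.06 and DFFB at -0.02 ± 0.09, with limma adjusted p-values of 0.81 and 0.875.

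Of 10 measured signalling partners of cIAPs and XIAP, 3 rose, 4 fell and 3 were not called. Over all genes, 24.1% rose and 23.2% fell, and 73.7% were called at a mean log2 value of at least 7. TRAF3, an adaptor that brings cIAPs to the NF-kB-inducing kinase, read 9.93, 10.01 and 9.87 in DMSO and 8.59, 8.38 and 8.35 in SAHA, a change of -1.49 ± 0.08 (2.82-fold lower, limma adjusted p = 3.51e-06), and its 3 probe sets were each lower. TAB2, a ubiquitin-binding subunit of the TAK1 kinase complex, was at -0.56 ± 0.06, and the deubiquitinase CYLD rose by 0.56 ± 0.07. The other rises were RIPK2 (0.38 ± 0.06) and MAP3K7 (0.25 ± 0.06), which encodes TAK1, and the other falls were USP19 (-0.44 ± 0.07) and TAB1 (-0.27 ± 0.07). Of the 4 probe sets of USP19 and the 3 of TAB1, 1 each was called, and the second brightest of each was not (-0.12 and -0.16, limma adjusted p = 0.201 and 0.138).

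Of 6 measured genes of the chromosomal passenger complex and survivin's regulators, 5 fell and 1 rose, where 23.2% and 24.1% of all genes did. Among genes with a mean log2 value of at least 7, as these had, 73.7% were called in either direction. The list's median log2 fold change was -0.80. AURKB, the kinase of the complex, read 10.08, 10.25 and 10.27 in DMSO and 9.34, 9.19 and 9.25 in SAHA, a change of -0.94 ± 0.08 (1.92-fold lower, limma adjusted p = 2.48e-05). CDCA8 (borealin) was at -0.68 ± 0.06 and INCENP at -0.38 ± 0.10. XPO1, which exports survivin from the nucleus, was at -1.19 ± 0.06 and FOXM1, a transcription factor of mitotic genes, at -0.92 ± 0.06. HSP90AA1, a chaperone of survivin, rose by 0.44 ± 0.06. Of 4 genes listed with BIRC6, RAB11FIP1 rose by 1.84 ± 0.07 (3.58-fold, limma adjusted p = 8.21e-07) and USP8 by 0.41 ± 0.07, KIF20A was at -0.54 ± 0.06, and UBA6, the activating enzyme that charges BIRC6, was at 0.22 ± 0.09 (limma adjusted p = 0.0977). The call of USP8 was lost with the ACTB covariate (0.31, limma adjusted p = 0.0964).

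**Figure D4:**
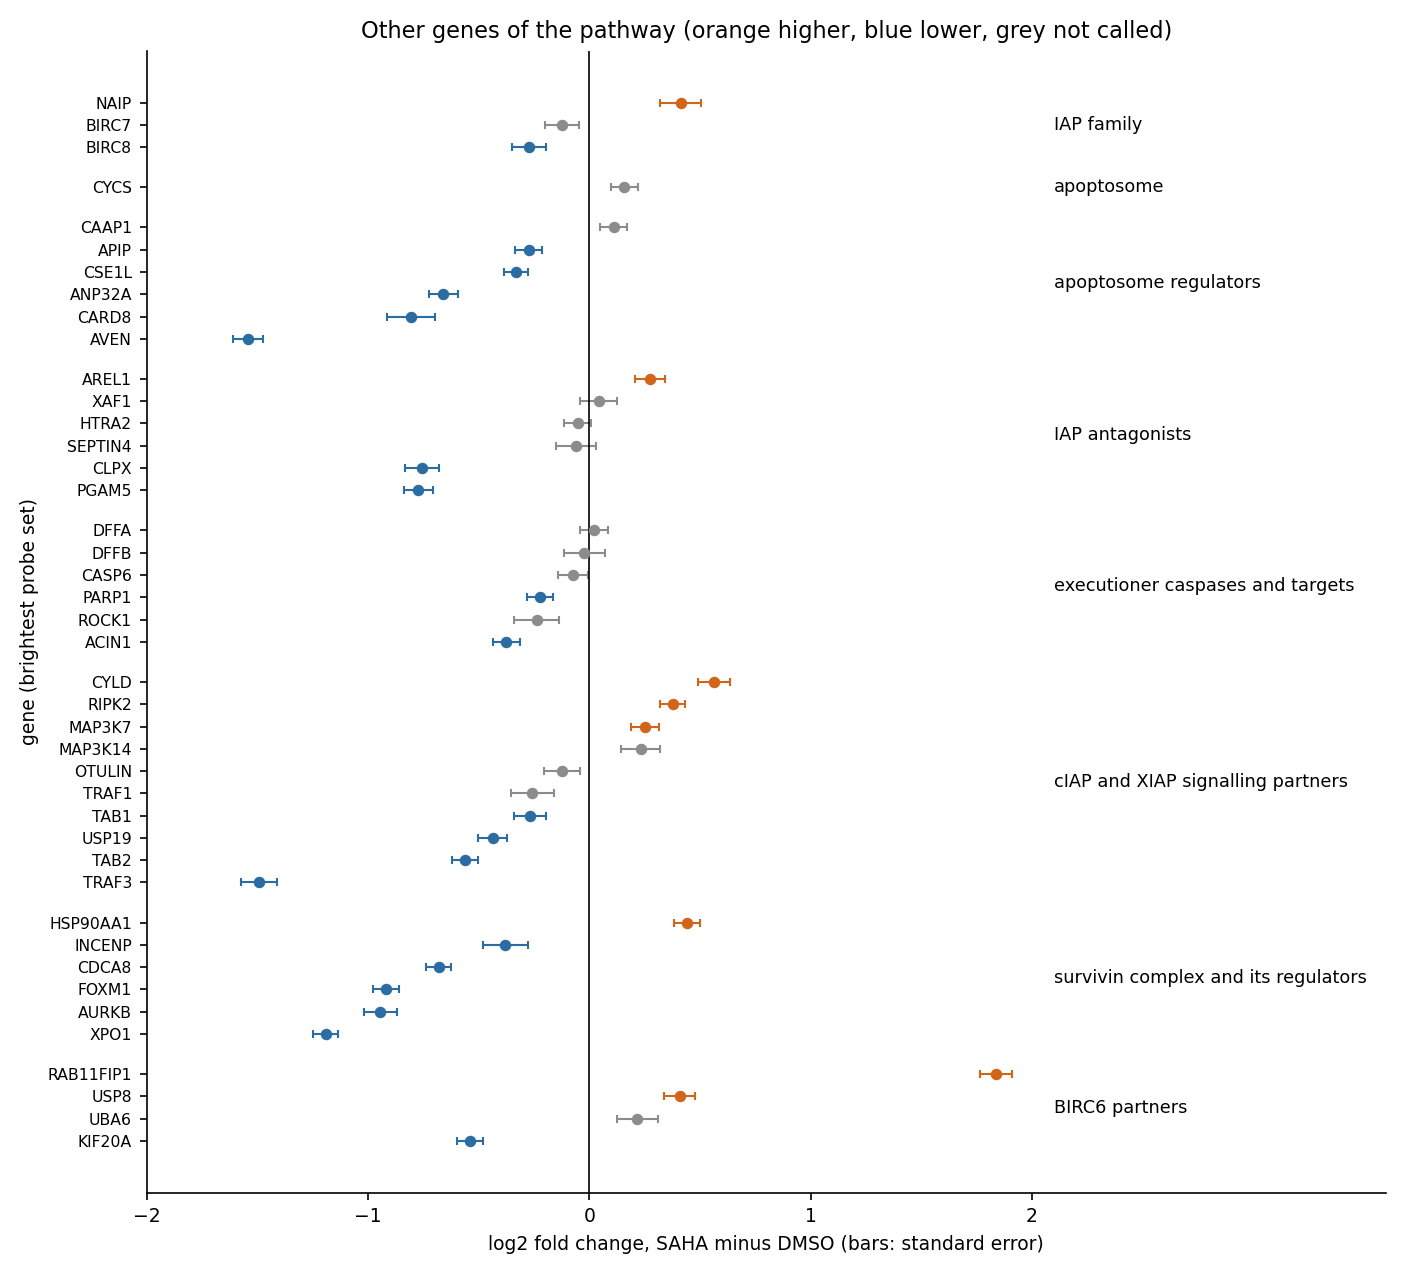
Log2 fold change of SAHA over DMSO (horizontal axis) of the 42 measured genes of the pathway that are not members, by list, with standard errors as bars and orange for higher, blue for lower and grey for not called. AVEN and TRAF3 lie furthest to the left and RAB11FIP1 furthest to the right.

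Across all probe sets the arrays of a group correlated at 0.997 to 0.998 and arrays of different groups at 0.969 to 0.970. The line's markers VIM, CD44, AXL, MSN and CAV1 were high, at 12.0 to 14.0 in DMSO, and PGR (3.29) and CDH1 (4.20) were low. ESR1, also listed as low, was at 5.98, near the median of all probe sets (6.19 over the DMSO arrays). With SAHA, CAV1 (-0.71), CD44 (-0.57), AXL (-0.38) and MSN (-0.27) were called lower. EPCAM, listed as low in this line, was at 8.67 ± 0.07 in DMSO and 7.74 ± 0.02 in SAHA, and ERBB2 was at 7.63 ± 0.15 and 7.16 ± 0.10 (SD, n = 3). Of 6 leukocyte and endothelial markers, the means lay between 3.24 and 6.52. CD14 was higher with SAHA, at 3.96 ± 0.17 and 4.97 ± 0.04, and CD3E was lower, at 4.88 ± 0.07 and 4.63 ± 0.11. Their part in the results above was not tested.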

How the data were processed

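Total RNA was amplified, labelled with biotin and hybridized to arrays, per the labels' protocols. The authors deposited a log2 value for each probe set. The submitters' processing notes name RMA, with software and version not given in the sources used here. Because RMA equalizes the distributions of the arrays, these values cannot show whether most transcripts shifted together, and they understate changes near the floor. Gene names came from the platform annotation, and 102 array controls were left out of the test.

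Groups came from the sample titles. The test was limma 3.58.1 under R 4.3.3 (lmFit and eBayes, without trend, robust moderation, covariates or a filter on level), as SAHA minus DMSO, two-sided, with Benjamini-Hochberg adjustment over 49293 probe sets at 0.05. A gene was represented by its brightest probe set naming it alone. For pairs of probe sets of 1 gene, the difference on each array was tested in the same way over 26827 pairs, leaving out 29 with identical differences. The rule named every member probe set, the 3 genes of each list with the smallest p, and the 3 genes most like the member with the largest rise and the one with the largest fall. Other listed genes were named after their values were seen. The members and lists were chosen with earlier results of these data known, and the promoter letters after the values were seen. Alternatives were a replicate block, minimum mean log2 values of 5 and 7, omission of the _x_at and _s_at probe sets that similar transcripts share, another quantile normalization, centring on ribosomal protein genes or on spike-ins, array weights, the ACTB covariate, eBayes with trend and robust settings, each array left out, and other choices of a gene's probe set. The procedure was tested on simulated data first. Figures were drawn with matplotlib 3.10.9.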

Additional observations from a re-analysis of the deposited data

How the results depend on the processing

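The 31 member probe sets gave 522 values under other settings. Of these, 503 kept their direction and call, 19 kept their direction and lost the call, and 0 changed direction. The lost calls were in the 2 dimmest APAF1 probe sets, the brightest APAF1 probe set with the ACTB covariate, the dimmer BIRC6 probe set, and 2 dim BIRC5 probe sets centred on poly-A spike-ins. Against 7 higher and 24 lower member probe sets, 3 were higher with a mean log2 value of at least 7 and 4 with the ACTB covariate, and 14 were lower without _x_at and _s_at probe sets. The filters leave fewer probe sets to count. With the ACTB covariate fewer of all probe sets were called too, 7486 higher and 8509 lower, against 10949 and 11901 in the main fit. Leaving out each array gave 5 to 7 higher and 23 to 24 lower. Centring on ribosomal protein genes shifted the median of all probe sets by 0.148 and on poly-A spike-ins by 0.164. All probe sets then split into 17011 higher and 8646 lower, or 14255 and 6960, against 10949 and 11901 without it, and members into 7 higher with 23 or 21 lower. With the replicate number as a block, 7 were higher and 24 lower. Whether same-numbered arrays shared a culture or day is not given in the labels. They correlated at -0.0967 to -0.0349 in their deviations from the group means, which with 3 arrays per group cannot settle it. Of the other listed genes, 5 were higher with the ACTB covariate (8 without it), and 12 were lower centred on poly-A spike-ins (20 without it).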
